A study of Homo sapiens with 12 samples.

Results

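The interaction of POLR2A knockdown with aristolochic acid I (AAI) was measured here in HK-2 cells: for each gene, the change with AAI in knockdown cells minus the change with AAI in control cells. All 12 libraries of the series enter this contrast, 3 from each of 4 groups. Of the 35238 genes in the deposited table, 15325 were tested, and they were taken as 11581 well expressed genes, with a mean of at least 5 CPM (reads of a gene relative to all reads of its library, scaled to 1000000) over the 12 libraries, and 3744 weak genes under that mean. The rule names no gene by its interaction, but the mean level and the filter on low values include siB AAI, so a gene high in that group alone can enter through it: for 14 of the 23 well expressed genes called higher, the mean of the other 9 libraries was under 5 CPM. A positive interaction means that the change with AAI was more positive in knockdown cells, and such genes are called higher. A negative interaction means that it was more negative, and such genes are called lower.

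HK-2 is an established human proximal tubule line, and all 4 groups came from this 1 line. Control cells received 10 nM of a scrambled duplex (SCR), knockdown cells 10 nM of a short interfering RNA against POLR2A (siB), and at the same time each was given 25 µM AAI or its solvent, dimethyl sulfoxide (DMSO), for 24 hours. The groups were SCR DMSO, SCR AAI, siB DMSO and siB AAI, and they rest on the sample titles, because the treatment field of the labels reads DMSO throughout. A single siRNA sequence and a transient transfection stand for the knockdown, and nothing in the labels says whether replicates were separate cultures, so p-values measure only the spread between these libraries.

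POLR2A encodes RPB1, the largest and catalytic subunit of RNA polymerase II, the enzyme that transcribes all messenger RNA. AAI is a plant toxin that is taken up by proximal tubule cells and, once reduced, forms bulky adducts with purines in DNA. Such adducts stall elongating polymerase, and stalled RPB1 can be ubiquitylated and degraded, so that the supply of polymerase and the length of the template both bear on what a damaged cell can still transcribe. Genes with short-lived transcripts are known to follow a loss of transcription sooner than others do.

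Depth ran from 15844015 to 42805294 reads per library. SCR DMSO replicate 2 was the deepest library and stood apart. Over the well expressed genes, its median distance from the mean of the other replicates of its group was 0.586 on the log2 scale, against 0.121 to 0.439 for the other 11 libraries. The median SD per gene was 0.401 in SCR DMSO, 0.245 in SCR AAI, 0.139 in siB DMSO and 0.164 in siB AAI, so the control group in solvent was the most variable of the 4. Total calls, many list medians and some genes are therefore given with and without SCR DMSO replicate 2. The shapes of the interaction, spans, exons, GC content and upstream neighbours rest on the fit over all 12 libraries alone. The epithelial markers PAX8 (200 to 418 CPM) and KRT8 (526 to 809 CPM) were high in every library, while the proximal tubule markers were mixed. The endocytic receptors LRP2 (at most 1.20 CPM) and CUBN (at most 2.26), the water channel AQP1 (at most 0.554) and the phosphate transporter SLC34A1 (at most 2.04) were near 0, while GGT1 (96.0 to 184 CPM), SLC5A2 (3.13 to 20.1) and MME (3.99 to 14.2) were expressed.

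The target itself came first. POLR2A (chromosome 17, 7484366 to 7514616, plus strand) stood at 258, 288 and 306 CPM in SCR DMSO, against 673, 719 and 729 CPM in SCR AAI. In knockdown cells it stood at 138, 143 and 139 CPM in siB DMSO and at 266, 220 and 210 CPM in siB AAI. The siB DMSO libraries lay below every SCR library, and the siB AAI libraries reached at most the lower part of the SCR DMSO range, as the labels require. POLR2A rose with AAI by 1.32 on the log2 scale in SCR cells (limma adjusted p = 1.99e-05) and by 0.72 in knockdown cells (limma adjusted p = 0.00108). The difference between these rises was -0.59 (SE 0.185) and did not pass the test (limma adjusted p = 0.157, and 0.0684 without SCR DMSO replicate 2).

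Across all genes the interaction was called (limma adjusted p under 0.05 with Benjamini-Hochberg correction) for 247 of 15325 genes, 1.61% of those tested, 223 higher (1.46%) and 24 lower (0.157%). Among well expressed genes 44 were called (0.38%), 23 higher (0.199%) and 21 lower (0.181%). Among weak genes 203 were called (5.42%), 200 higher (5.34%) and 3 lower (0.0801%). The shares of the levels are not compared, since 159 of the 200 weak higher genes passed the filter only through siB AAI. With median-ratio size factors in place of CPM the split of the well expressed calls moved to 32 higher and 11 lower. It moved the other way without AC010970.2, a transcript that took 0.189% to 10.6% of reads (26 higher, 33 lower), with a replicate block (39 and 94), with no filter (22 and 57) and with array weights (5 and 15), so the near balance of both directions depends on the setting. Without SCR DMSO replicate 2 there were 1010 calls (6.59%), 498 higher (3.25%) and 512 lower (3.34%). Of the well expressed genes 639 were then called (5.52%), 142 higher (1.23%) and 497 lower (4.29%), and of the weak genes 371 (9.91%), 356 higher (9.51%) and 15 lower (0.401%). Of the 247 calls made with all libraries, 246 were also made without it.

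**Figure D1:**
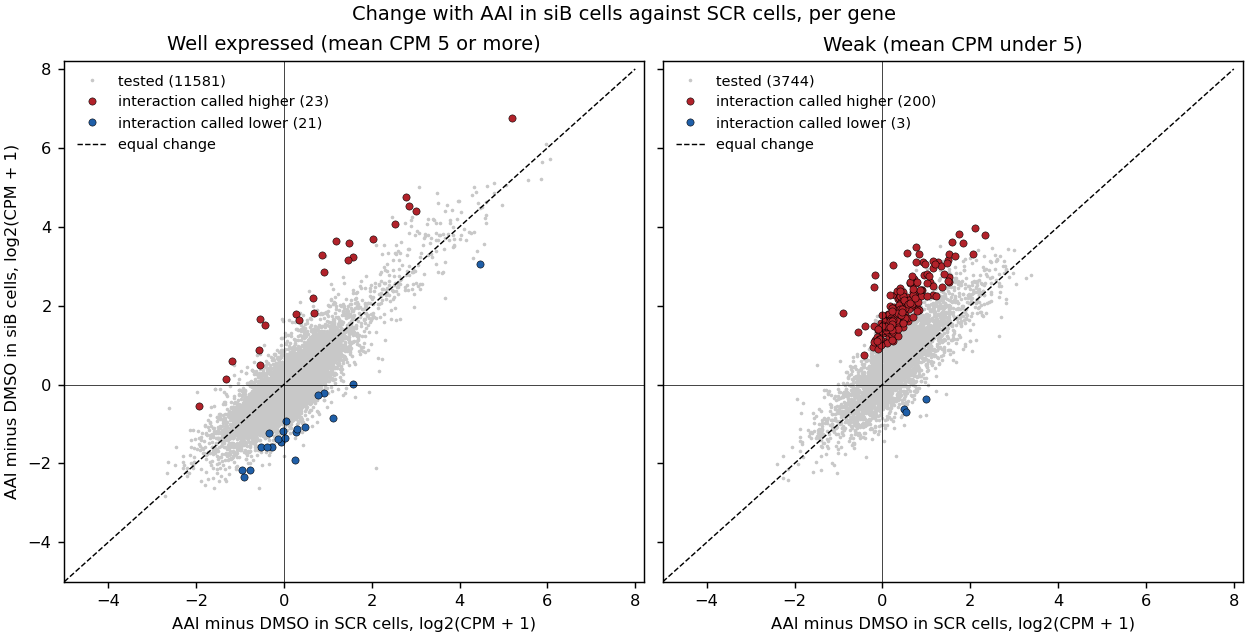
Change with AAI (AAI minus DMSO, log2 of CPM plus 1) in siB cells on the vertical axis against SCR cells on the horizontal axis, 1 point per gene tested, with well expressed genes on the left and weak genes on the right. Red points are genes whose interaction was called higher (23 and 200), blue points those called lower (21 and 3), and the dashed line marks an equal change in both cell types. The weak called genes lie almost all above the line.

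The well expressed calls sit close to the threshold and depend on the genes tested with them. Their adjusted p-values come from a correction over all 15325 genes, in which 203 of the 247 calls were weak genes. Small p-values of weak genes lower the adjusted p of well expressed genes in that correction. Of the 200 weak higher calls, 159 passed the filter only through siB AAI. When the 11581 well expressed genes were tested alone, none was called: the smallest limma adjusted p was 0.0573, with 1125 genes at an unadjusted p under 0.05. The voom method in limma, applied to the reads recovered from the table, called none of the 15325 genes, with 1548 at an unadjusted p under 0.05. Without SCR DMSO replicate 2 those fits called 514 and 513 genes. All 247 called genes kept their sign under voom, and 23 of 23 well expressed higher genes, 21 of 21 lower genes and 169 of 200 weak higher genes had an unadjusted voom p under 0.05. Voom refits the same libraries and contrast in which these genes were chosen. These counts follow from that choice in large part and are no support for the calls.

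In the fit over all 12 libraries the knockdown raised 5 genes (0.0326%) and lowered 1 (0.00653%) in DMSO, and raised 744 (4.85%) and lowered 377 (2.46%) in AAI. AAI raised 2776 genes (18.1%) and lowered 1318 (8.6%) in SCR cells, and raised 3177 (20.7%) and lowered 2103 (13.7%) in siB cells. These contrasts share libraries with the interaction and are given only as its terms.

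The well expressed genes called higher were mostly genes that rose with AAI in SCR cells and rose further in knockdown cells. Of the 23, 16 had a larger rise in siB cells, 6 had a negative fitted change in SCR cells and a positive one in siB cells, and 1 had a smaller fall. Their median change with AAI was 0.87 in SCR cells and 2.86 in siB cells, while the knockdown in DMSO moved them by a median of -0.12. In 18 of the 23 every siB AAI library lay above all 9 other libraries (4.52% of the well expressed genes tested), which follows from the call in large part, so nothing is read from it. SiB AAI replicate 1, the shallowest library, held the highest value of 18 of the 23.

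ABCC2 encodes the export pump MRP2, which moves conjugated drugs and toxins across the apical membrane of the proximal tubule (chromosome 10, 99782640 to 99852594, plus strand). It stood in SCR cells at 1.06, 0.654 and 1.43 CPM with DMSO and 4.91, 4.53 and 5.68 CPM with AAI, and in siB cells at 1.58, 1.04 and 1.12 CPM with DMSO and 21.2, 18.3 and 20.9 CPM with AAI. The 4 groups separated into both DMSO groups near 1 CPM, SCR AAI next and siB AAI above, with no overlap between siB AAI and any other library. The interaction was 1.67 (SE 0.269, limma adjusted p = 0.0115).

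DNAH10, an axonemal dynein heavy chain, had the same order. It stood in SCR cells at 1.02, 0.514 and 0.956 CPM with DMSO and 6.35, 5.44 and 7.60 CPM with AAI, and in siB cells at 0.898, 1.22 and 0.613 CPM with DMSO and 24.2, 22.8 and 23.9 CPM with AAI. The siB AAI libraries varied by little around their mean of 23.6 ± 0.702 CPM (SD, n = 3), and the interaction was 1.67 (SE 0.272, limma adjusted p = 0.0122). ADGRF4, an adhesion receptor, went from 0.985 ± 0.281 CPM in siB DMSO to 16.7 ± 1.61 CPM in siB AAI, and from 0.892 ± 0.278 to 4.21 ± 0.938 CPM in SCR cells (SD, n = 3). Its interaction was 1.71 (limma adjusted p = 0.0122).

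MYH15, a myosin heavy chain, reached 21.3, 15.9 and 14.5 CPM in siB AAI, against 3.15, 1.95 and 3.95 CPM in SCR AAI. It stayed at or under 0.812 CPM in all 6 DMSO libraries, so the groups did not overlap, and the interaction was 2.11 (SE 0.327, limma adjusted p = 0.0103). SELPLG, the ligand that carries leukocytes to P-selectin, reached 39.1 ± 7.18 CPM in siB AAI and 10.8 ± 2.54 CPM in SCR AAI (SD, n = 3), with an interaction of 1.97 (limma adjusted p = 0.0204). ANKRD26P1, a pseudogene that shares sequence with its parent gene and whose counts are therefore uncertain, was at or under 0.0935 CPM in every DMSO library and reached 27.0, 19.9 and 20.4 CPM in siB AAI (interaction 1.67, limma adjusted p = 0.0343).

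GRAMD2 encodes a protein of contacts between the endoplasmic reticulum and the plasma membrane. Its siB AAI values spread widely, at 35.5, 14.6 and 18.4 CPM, yet all lay above the highest of the other 9 libraries, 4.58 CPM in SCR AAI replicate 1, and the interaction was 2.42 (SE 0.436, limma adjusted p = 0.0184). A transcript known only by a clone name, with no position found in the annotation, had the largest interaction among well expressed genes, 2.44 (SE 0.431, limma adjusted p = 0.0171). It was low in siB DMSO (0.428, 0.18 and 1.06 CPM) and reached 18.8, 18.4 and 16.3 CPM in siB AAI. FAM179A rose from 3.03 ± 0.421 to 28.4 ± 5.51 CPM with AAI in knockdown cells and from 3.13 ± 1.39 to 6.51 ± 1.14 CPM in SCR cells (SD, n = 3), an interaction of 1.94 (limma adjusted p = 0.0265).

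In a second pattern the fitted change with AAI was negative in SCR cells and positive in knockdown cells. TSPAN31, a tetraspanin, stood at 22.0, 18.8 and 19.3 CPM in SCR DMSO, against 10.9, 7.25 and 7.09 CPM in SCR AAI, a called fall. In knockdown cells it stood at 14.3, 19.6 and 16.8 CPM in DMSO and at 33.4, 25.0 and 20.1 CPM in AAI, an increase that did not pass the test (limma adjusted p = 0.0651). Its interaction was 1.77 (SE 0.321, limma adjusted p = 0.0185). TLL2, a tolloid-like metalloprotease, reached 40.1, 29.5 and 29.7 CPM in siB AAI, above all other libraries. Among the SCR DMSO libraries replicate 2 was high for TLL2, at 20.1 CPM against 7.95 and 9.23 CPM, and the interaction was 2.21 (limma adjusted p = 0.0195) with it and 1.83 (limma adjusted p = 0.00758) without it. ADAMTS6, a secreted metalloprotease, overlapped between groups: SCR DMSO ran from 4.82 to 8.36 CPM and siB AAI from 8.14 to 9.65 CPM, and the interaction of 1.94 (limma adjusted p = 0.0228) came with a siB DMSO level of only 2.49 ± 0.412 CPM (SD, n = 3).

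**Figure D2:**
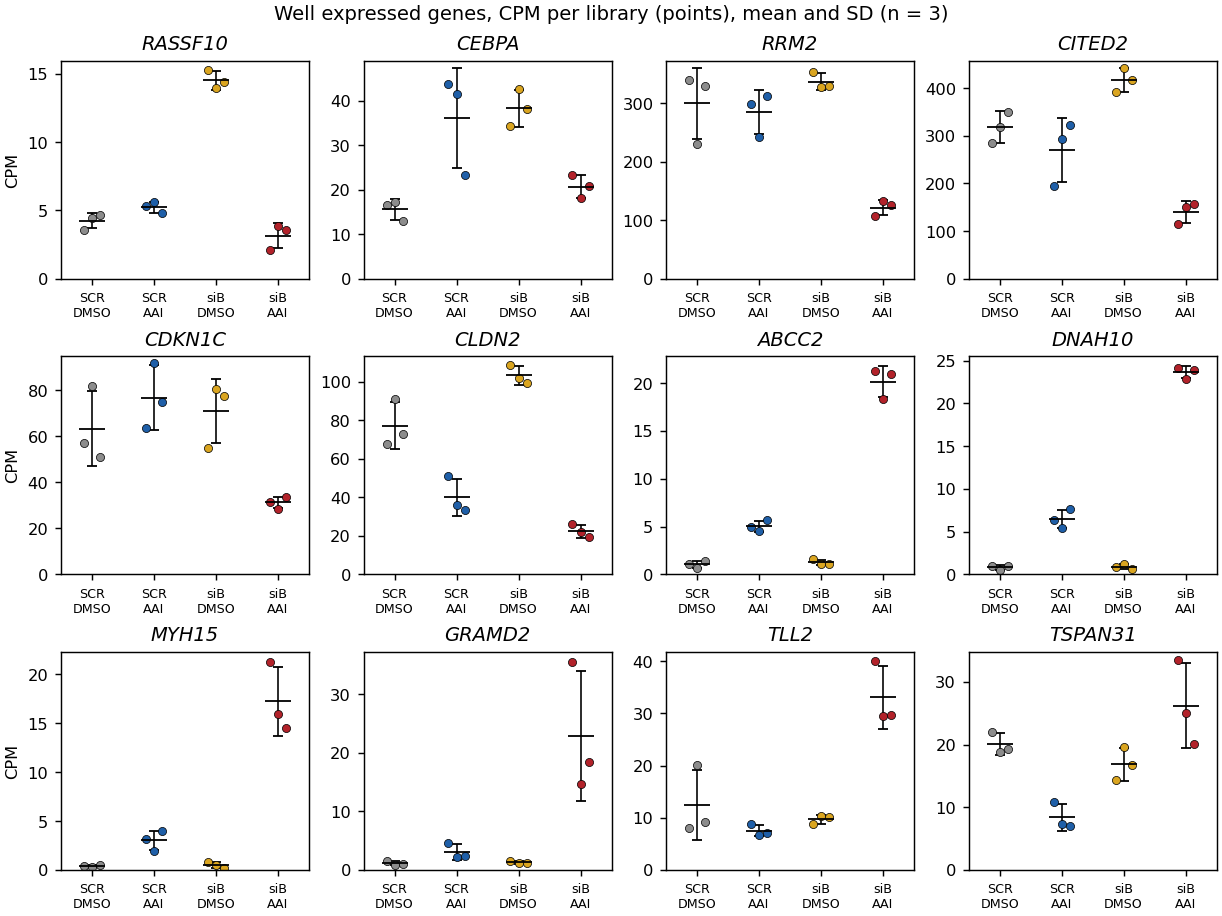
CPM of 12 well expressed genes in each library (points), with group means and SD (n = 3) as black bars; each panel has its own linear axis from 0. In RRM2, CITED2, CDKN1C and CLDN2 the siB AAI points lie below all others, in CEBPA and RASSF10 they lie below siB DMSO, and in ABCC2, DNAH10, MYH15, GRAMD2 and TLL2 they lie above all others; TSPAN31 shows SCR AAI at 7.09 to 10.9 CPM below every other group.

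Of the well expressed genes called lower, 10 of 21 had a larger fall in siB cells, 9 had a positive fitted change in SCR cells and a negative one in siB cells, and 2 had a smaller rise. Their median change with AAI was 0.03 in SCR cells and -1.23 in siB cells, and the knockdown in DMSO moved them by a median of 0.38. In 15 of the 21 every siB AAI library lay below all 9 others (7.14% of the well expressed genes tested), from which again nothing is read.

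RASSF10, a Ras association domain gene, had the most negative called interaction, -2.18 (SE 0.282, limma adjusted p = 0.00428). It stood at 3.61, 4.46 and 4.67 CPM in SCR DMSO, against 5.30, 5.62 and 4.81 CPM in SCR AAI. In knockdown cells it stood at 15.3, 13.9 and 14.4 CPM in DMSO and fell to 2.08, 3.83 and 3.59 CPM in AAI. The siB DMSO libraries therefore stood alone, and RASSF10 was 1 of the 6 genes that the knockdown changed in DMSO (log2 change 1.57, limma adjusted p = 0.0271).

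CEBPA encodes C/EBPalpha, a transcription factor of differentiated cells that restrains proliferation (chromosome 19, 33299934 to 33302534, minus strand). It stood at 16.6, 17.2 and 12.9 CPM in SCR DMSO, against 43.6, 41.4 and 23.3 CPM in SCR AAI, a called rise. In knockdown cells it stood at 38.3 ± 4.12 CPM in DMSO and at 20.7 ± 2.65 CPM in AAI (SD, n = 3), a called fall. The directions were opposite, and the interaction was -1.98 (SE 0.332, limma adjusted p = 0.0135).

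RRM2, the subunit of ribonucleotide reductase that supplies deoxynucleotides for replication and repair, stood at 340, 230 and 329 CPM in SCR DMSO, against 299, 242 and 313 CPM in SCR AAI. It stood at 353, 327 and 329 CPM in siB DMSO and fell to 108, 132 and 125 CPM in siB AAI, below every other library. The interaction was -1.40 (SE 0.243, limma adjusted p = 0.0163). CDKN1C, the cyclin-dependent kinase inhibitor p57, stood at 31.2 ± 2.53 CPM in siB AAI and between 63.2 and 76.6 CPM in the means of the other groups (interaction -1.43, limma adjusted p = 0.0390). CITED2, which binds the coactivators p300 and CBP and restrains hypoxia signalling, fell in knockdown cells from 417 ± 24.2 CPM (SD, n = 3) to between 114 and 157 CPM, while the SCR libraries lay between 196 and 350 CPM, an interaction of -1.32 (limma adjusted p = 0.0342).

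CLDN2, the pore-forming claudin of proximal tubule tight junctions, was the 1 junction gene called. It fell with AAI in both cell types, from 77.3 ± 12.4 to 40.1 ± 9.53 CPM in SCR cells and from 103 ± 4.95 to 22.4 ± 3.34 CPM in knockdown cells (SD, n = 3), and the fall was larger by 1.22 in knockdown cells (limma adjusted p = 0.0452). SNN and ZBED6CL also fell in both, to 5.66 ± 1.25 and 13.3 ± 2.47 CPM in siB AAI (interactions -1.38 and -1.43, limma adjusted p = 0.0272 and 0.0166). ZBED6CL lies within the span of LRRC61 on the same strand, also called lower (-1.21, limma adjusted p = 0.0431), and their reads may not be separable.

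AAI raised B3GALT4, a galactosyltransferase of ganglioside synthesis, in both cell types, and less with the knockdown. It stood between 0.135 and 0.470 CPM in all 6 DMSO libraries, at 23.3, 34.4 and 26.2 CPM in SCR AAI and at 8.84, 10.9 and 10.3 CPM in siB AAI (interaction -1.41, limma adjusted p = 0.0261). RILP, an effector of the lysosomal GTPase Rab7, rose from 6.35 ± 1.99 to 20.9 ± 4.88 CPM with AAI in SCR cells, while its knockdown means were 12.1 ± 2.45 CPM without AAI and 12.1 ± 1.11 CPM with it (SD, n = 3; interaction -1.58, limma adjusted p = 0.0367). B3GALT4 and RILP each begin shortly past another expressed gene on the same strand, whose reads may not be separable from theirs. GPR162, TRMO and PNMA6A, the last from a family of close copies, completed the 12 named, with interactions of -1.56, -1.48 and -1.38 (limma adjusted p = 0.0166, 0.0322 and 0.0334).

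A pair of genes of the same damage response were called in opposite directions; they were chosen after their values were seen. MDC1, the adaptor that binds phosphorylated histone H2AX at DNA breaks, stood at 96.1 ± 9.71 CPM in SCR DMSO, 157 ± 29.1 in SCR AAI, 71.8 ± 2.71 in siB DMSO and 254 ± 22.7 in siB AAI (SD, n = 3), an interaction of 1.11 (limma adjusted p = 0.0283). H2AFX, which encodes the histone H2AX itself, stood at 221 ± 27.8, 379 ± 66.0, 341 ± 44.9 and 281 ± 9.05 CPM, group by group as for MDC1, an interaction of -1.04 (limma adjusted p = 0.0496).

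Only 1 of the 21 lower genes, RASSF10, and 5 of the 23 higher genes, ABCC2, ADGRF4, DNAH10, MYH15 and PSD4, stayed called whichever single library was left out. Leaving out siB DMSO replicate 2 or replicate 3 left 8 well expressed calls each, the fewest of the 12 such fits.

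To show the sequence around the starts of these genes, the 250 bases before the RefSeq start (GRCh38.p14) are printed for the 2 called well expressed genes with the lowest p in each direction that had an entry, 5′ to 3′ on the gene's strand, with every CG in capitals. PSD4, a guanine nucleotide exchange factor (interaction 1.51, limma adjusted p = 0.00976), and MYH15 were called higher; CEBPA and RRM2 were called lower. The windows are chr2:113173721-113173970 (plus strand) for PSD4, chr3:108510597-108510846 (minus strand) for MYH15, chr19:33302535-33302784 (minus strand) for CEBPA and chr2:10122318-10122567 (plus strand) for RRM2.
PSD4: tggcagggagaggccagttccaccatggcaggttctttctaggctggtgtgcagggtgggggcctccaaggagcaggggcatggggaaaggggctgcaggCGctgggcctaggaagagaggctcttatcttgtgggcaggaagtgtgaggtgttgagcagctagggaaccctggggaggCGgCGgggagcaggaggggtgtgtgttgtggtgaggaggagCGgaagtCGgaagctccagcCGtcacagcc
MYH15: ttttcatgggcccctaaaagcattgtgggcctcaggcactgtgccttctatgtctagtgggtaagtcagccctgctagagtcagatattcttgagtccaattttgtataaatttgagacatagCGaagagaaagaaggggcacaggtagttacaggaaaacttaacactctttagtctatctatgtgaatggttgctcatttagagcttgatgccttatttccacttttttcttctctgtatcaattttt
CEBPA: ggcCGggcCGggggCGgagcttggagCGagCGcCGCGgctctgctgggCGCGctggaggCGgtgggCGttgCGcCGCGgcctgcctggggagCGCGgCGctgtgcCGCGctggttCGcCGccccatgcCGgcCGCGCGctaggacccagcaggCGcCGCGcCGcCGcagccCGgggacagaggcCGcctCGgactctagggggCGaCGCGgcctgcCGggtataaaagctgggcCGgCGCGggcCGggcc
RRM2: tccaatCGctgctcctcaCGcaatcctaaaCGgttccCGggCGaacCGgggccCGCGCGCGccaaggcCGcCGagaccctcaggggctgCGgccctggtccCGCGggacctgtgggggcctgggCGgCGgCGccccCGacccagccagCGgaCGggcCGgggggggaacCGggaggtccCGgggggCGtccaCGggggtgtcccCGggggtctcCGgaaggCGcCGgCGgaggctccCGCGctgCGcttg
The higher genes held 6 (PSD4) and 1 (MYH15) CG dinucleotides and the lower genes 41 (CEBPA) and 34 (RRM2), against a median of 20 over the 11473 promoters of tested genes, of which 10% held at most 5 and 10% at least 34. These windows describe these genes alone, and for PSD4, MYH15 and RRM2 the RefSeq start differs from the span used elsewhere. Both directions held low and high counts in a longer window that reaches past the start. There the named genes called higher ran from 1 (ABCC2) to 46 (DNAH10) and those called lower from 1 (CLDN2) to 50 (CEBPA). Entries covered 18 of the 23 higher and 13 of the 21 lower genes, under 80% in both cases, so a comparison of promoters over the sets was void and is not given.

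The weak genes called higher were detected mainly in siB AAI. Of the 200, 121 (60.5%) reached 1 CPM in no library outside siB AAI, and 159 (79.5%) did so in fewer than 3 of the other 9 libraries. Those 159 passed the filter on low values (1 CPM in at least 3 libraries) only through the group in which they were high, so they had to differ, and their number supports nothing. For 57 of the 200 all 6 DMSO libraries were at or under the limit of detection, 3 reads of the total, which was 0.0701 to 0.189 CPM. Levels stayed low: the siB AAI mean ran from 1.17 to 15.4 CPM with a median of 3.27 CPM, against a median of 0.531 CPM in SCR AAI. In 199 of the 200 the siB AAI libraries lay above all 9 others (25.8% of the weak genes tested), from which nothing is read since the call and the filter favour it, and siB AAI replicate 1 held the highest value of 150.

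TMEM119, a membrane protein known as a marker of microglia, stood at 10.4, 5.12 and 6.48 CPM in siB AAI and at or under 0.588 CPM in each of the other 9 libraries. Its interaction was 2.96 (SE 0.315, limma adjusted p = 0.00143). LRRC15, a leucine-rich repeat membrane protein of stromal cells, stood at 13.5, 5.21 and 8.36 CPM in siB AAI and at or under 0.548 CPM elsewhere (interaction 2.79, limma adjusted p = 0.00447). LEFTY2, a secreted antagonist of nodal signalling in the TGF-beta family, stood at 14.2, 6.14 and 8.68 CPM in siB AAI and at or under 0.939 CPM elsewhere (interaction 2.76, limma adjusted p = 0.00428). In all 3 genes siB AAI replicate 1 was the highest library, and no group overlapped with siB AAI.

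NPC1L1, the transporter of dietary cholesterol in the gut, stood at 7.09 ± 4.30 CPM in siB AAI (SD, n = 3), with replicate 1 the highest, and at or under 1.16 CPM elsewhere (interaction 2.66, limma adjusted p = 0.0169). MN1, a transcriptional coregulator, stood at 9.97, 6.74 and 9.75 CPM in siB AAI, but SCR DMSO replicate 2 was at 7.78 CPM against 2.31 and 1.47 CPM for the other replicates of its group, so these groups overlapped. Its interaction was 2.73 (SE 0.539, limma adjusted p = 0.0274) with that library and 2.19 (limma adjusted p = 0.00758) without it.

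**Figure D3:**
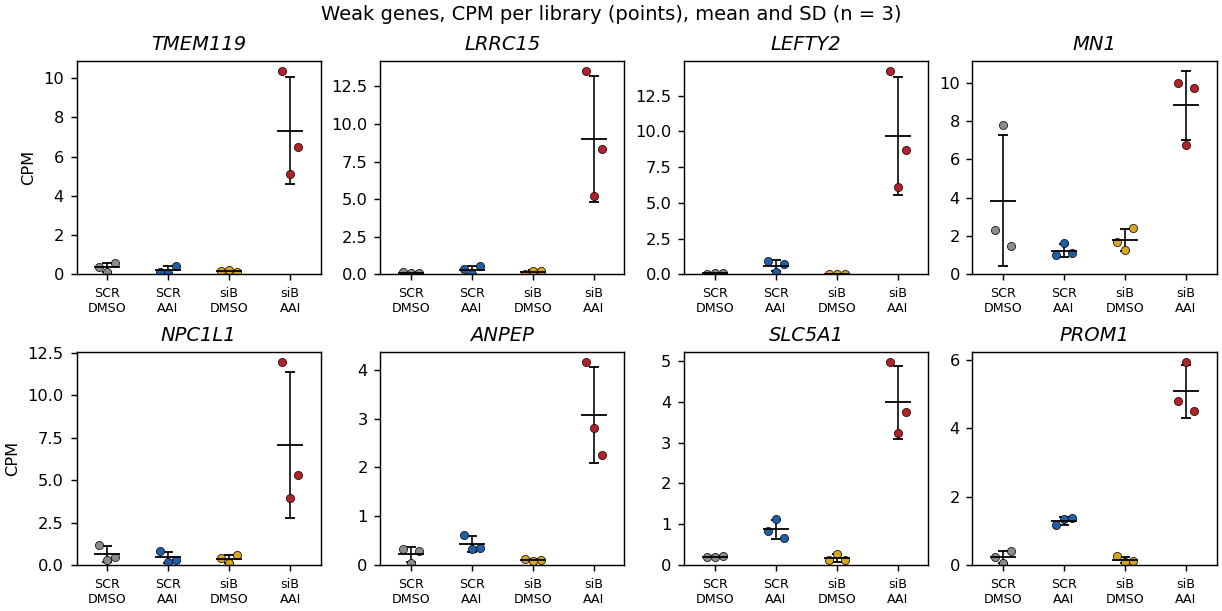
CPM of 8 weak genes called higher, per library (points), with group means and SD (n = 3) as black bars and linear axes from 0. In every panel but MN1 the siB AAI points lie above all 9 others; in MN1 the SCR DMSO point at 7.78 CPM is replicate 2.

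Among the 3 weak genes called lower were GADD45G, a stress sensor of the GADD45 family, and LIPT2, a lipoyl transferase. GADD45G stood at 0.381 ± 0.197 CPM in SCR DMSO, 1.77 ± 0.551 in SCR AAI, 1.09 ± 0.386 in siB DMSO and 0.623 ± 0.203 in siB AAI (SD, n = 3), an interaction of -1.35 (limma adjusted p = 0.0342). LIPT2 had an interaction of -1.25 (limma adjusted p = 0.0246), with a mean of 2.07 CPM in siB AAI against 4.06 CPM in siB DMSO. The next genes by p, C3orf80 (-1.40), CCDC89 (-0.97) and SLC34A1 (-0.96), were not called (limma adjusted p = 0.0511, 0.0530 and 0.0647). At the boundary between the levels, ZNF425 lay just inside a mean of 5 CPM, at 5.15 CPM, and CLCN1 just outside it, at 4.78 CPM; their interactions were 1.53 and 1.87.

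Some quantities of the whole library were higher in siB AAI than in all other libraries, and others were not. The number of genes expected with at least 1 read at a common depth of 15000000 reads, computed from each library's own counts, was 21194 to 22665 in siB AAI and 18499 to 20486 in the other 9 libraries. The median weak gene stood at 2.09 to 2.71 CPM in siB AAI, 1.63 to 1.71 CPM in SCR AAI and 0.748 to 1.29 CPM in DMSO. Of the 3744 weak genes, 857 (22.9%) passed the filter on low values only through siB AAI. That choice raises the median there, so nothing is read from its rank. Summed over 399 olfactory receptor genes the level was 41.5 to 51.7 CPM in siB AAI and 15.8 to 36.7 CPM elsewhere. Mitochondrial transcripts took 4.12% to 5.01% of the reads in siB AAI and 2.67% to 3.84% elsewhere. The summed level of 7432 pseudogenes did not separate siB AAI (3518 to 4393 CPM) from SCR AAI (3458 to 3662 CPM), and both lay above DMSO (2205 to 2833 CPM). The part of these in the weak calls was not tested, and in bulk libraries fewer cells of a kind and less RNA per cell cannot be told apart.

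The summed level of markers of other cell types in siB AAI did not exceed the range of the other libraries, but CD68 and COL1A1 carried most of that sum and both had their lowest mean in siB AAI (68.7 and 12.1 CPM). The 17 immune, endothelial, stromal, glomerular and distal tubule markers summed to 100.5 to 112 CPM in siB AAI and 103 to 154 CPM elsewhere, and 7 to 11 of them were over 1 CPM in siB AAI, against 5 to 8 elsewhere. CD3E was at 0 in every library, and UMOD, the defining product of the thick ascending limb, was at most 0.0701 CPM. Some other low markers had their highest mean in siB AAI, among them PTPRC of leukocytes at 2.70 CPM (at most 1.11 in the other groups), ACTA2 of smooth muscle at 4.57 (2.23), SLC12A1, also of the thick ascending limb, at 1.31 (0.185), AQP2 of the collecting duct at 1.24 (0.0389) and NPHS1 of podocytes at 1.01 (0.165). Others had their lowest mean there: VWF of endothelium at 0.0568 CPM (at least 0.173 in the other groups), and PDGFRB and COL3A1 of stroma at 1.25 (1.39) and 0 (0.0143). Of the 8 tested, 2 were called higher (list median 0.15), beside 1.46% of all genes tested and 5.34% of the weak genes. SLC12A3, the sodium chloride transporter of the distal tubule, stood at 5.30, 4.29 and 6.70 CPM in siB AAI and at or under 1.49 CPM elsewhere (interaction 1.81, limma adjusted p = 0.00602). This gene passed the filter on low values only through siB AAI, so its call is no independent support. PECAM1, of endothelial junctions, stood at 5.55, 5.03 and 3.38 CPM in siB AAI and at or under 1.62 CPM elsewhere (interaction 1.30, limma adjusted p = 0.0314). 

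Of 13 proximal tubule genes tested, 2 weak genes were called higher and none lower, beside 1.46% and 0.157% of all genes tested. The list's median was -0.08, with 9 below 0, beside -0.06 over all genes tested. Both called genes reached 1 CPM in fewer than 3 libraries outside siB AAI. They were tested only because they were high in that group, so their calls are no independent support. ANPEP, a brush border aminopeptidase, stood at 4.17, 2.81 and 2.25 CPM in siB AAI and at or under 0.607 CPM elsewhere (interaction 1.62, limma adjusted p = 0.0110). SLC5A1, a sodium-glucose transporter, stood at 4.99, 3.23 and 3.75 CPM in siB AAI and at or under 1.13 CPM elsewhere (interaction 1.44, limma adjusted p = 0.0114). Among 10 injury markers (median -0.04) PROM1, a membrane protein of injured and progenitor-like tubule cells, was called higher at 5.08 ± 0.767 CPM in siB AAI and 1.30 ± 0.119 CPM in SCR AAI (SD, n = 3; interaction 1.49, limma adjusted p = 0.00805). In the same fit 1.46% of all genes and 5.34% of the weak genes were called higher. Of 441 zinc finger genes named ZNF (median -0.09), 3 were called higher and none lower, beside 1.46% and 0.157% of all genes. Leaving out SCR DMSO replicate 2 gave a median of 0.24, with 11 called higher and 15 lower, beside 3.25% and 3.34% of all genes. The 3 were ZNF560 (1.68), ZNF425 (1.53) and ZNF534 (1.05), genes of a family whose similar sequences make the counts less certain. ZNF534 passed the filter on low values only through siB AAI.

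Gene lists for the polymerase and transcript processing held no calls with all libraries. The 12 subunits of RNA polymerase II had a median interaction of -0.15 (10 below 0, none called), and POLR2A was the most negative of them. The median of all well expressed genes was -0.13, near that of the subunits. With size factors the median of the subunits was -0.06 (7 below 0), beside 0.01 over all genes tested. Of 32 factors that hold or release paused polymerase, 31 of cleavage, polyadenylation and Integrator, 29 of nucleotide excision repair and 30 splicing regulators, none was called, with medians of -0.14, -0.21, -0.14 and -0.23. With size factors the medians of these 4 lists were -0.052, -0.12, -0.06 and -0.14. These medians were -0.027, -0.12, -0.002 and -0.019 without SCR DMSO replicate 2, and that of the polymerase subunits was -0.31. In that fit 3 elongation factors were called lower, MEPCE (-1.33, limma adjusted p = 0.00758), CDK9, the kinase that releases paused polymerase (-0.91, limma adjusted p = 0.0203), and NELFB (-0.89, limma adjusted p = 0.0214), beside 4.29% of all well expressed genes called lower; the genes named for that fit were chosen after their values were seen. In the same fit INTS2 was called higher (1.21, limma adjusted p = 0.0491), beside 1.23% of the well expressed genes, and was not called with all libraries.

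Early response genes had the most negative median of the lists other than the study's own genes. Of these 29 early response genes 24 had a negative interaction, with a median of -0.51, but none was called. DUSP6, a phosphatase that shuts off ERK, had the lowest p of them: it stood in SCR cells at 20.2, 22.0 and 77.9 CPM with DMSO and 73.9, 159 and 181 CPM with AAI, and in siB cells at 115, 116 and 120 CPM with DMSO and 64.1, 120 and 137 CPM with AAI. The groups overlapped, and the interaction of -2.14 had an SE of 0.678 (limma adjusted p = 0.165). SCR DMSO replicate 3 was the high library of its group for DUSP6, and the interaction was -2.75 without it. DUSP6 was called in 3 of 21 alternatives (lowest limma adjusted p = 0.0374), so this result depends on the setting. Without SCR DMSO replicate 2 the median was -0.67, and JUND (-1.15), KLF2 (-1.30) and IER2 (-0.79) were called lower (limma adjusted p = 0.0429, 0.0436 and 0.0321), beside 4.29% of the well expressed genes.

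The 6 genes that the study followed all had negative interactions and none was called. Beside POLR2A these were IL6 (-1.31, SE 1.39), KLF6 (-0.54), CDKN1A (-0.67), CTGF (-0.32) and VIM (-0.07), with limma adjusted p from 0.112 for CDKN1A to 0.978 for VIM. CDKN1A, the cell cycle inhibitor p21, rose with AAI in SCR cells from a range of 169 to 191 CPM to one of 263 to 305 CPM, and knockdown cells lay between 257 and 304 CPM with or without AAI. VIM turned positive under some settings, among them size factors. IL6 ranged from 3.15 to 48.7 CPM within SCR AAI, a spread at which its interaction was not detectable.

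Among 42 S phase genes RRM2 was the 1 call, beside 0.181% of the well expressed genes called lower. The list median was -0.26 (-0.03 without SCR DMSO replicate 2). Among 52 G2/M genes none was called (median -0.13, and 0.21 without SCR DMSO replicate 2, so the sign depends on that library). TUBB4B, a tubulin, was called lower without it (-0.95, limma adjusted p = 0.0310), beside 4.29% of the well expressed genes. Of 28 p53 targets none was called (median -0.26). Without SCR DMSO replicate 2, PHLDA3 (-1.69, limma adjusted p = 0.00936) and GDF15 (-2.08, limma adjusted p = 0.0340) were called lower, beside 4.29% of the well expressed genes. PHLDA3, an inhibitor of AKT, stood at 28.3, 32.2 and 31.1 CPM in siB AAI, below all 9 other libraries, whose lowest was 38.5 CPM.

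Of 22 genes of the unfolded protein and integrated stress response (median -0.26) none was called with all libraries, and 4 were called lower without SCR DMSO replicate 2: DDIT4 (-1.75), CEBPB (-1.44), SDF2L1 (-1.39) and ATF4 (-0.85), beside 4.29% of the well expressed genes. DDIT4, an inhibitor of mTORC1 induced by stress, missed the threshold with all libraries (-1.54, SE 0.350, limma adjusted p = 0.0511). It stood at 20.9, 27.5 and 31.4 CPM in siB AAI and between 50.6 and 137 CPM in all other libraries, with no overlap. ATF4, the transcription factor at the centre of that response, stood at 232, 297 and 283 CPM in siB AAI and at 505, 509 and 602 CPM in SCR AAI.

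Among 30 TGF-beta and matrix genes LEFTY2 was called higher, beside 1.46% of all genes tested. The median was 0.13, and 21 lay above 0. LEFTY2 passed the filter on low values only through siB AAI, so its call is no independent support. Without SCR DMSO replicate 2 the median was 0.31, and 2 members were called higher, LEFTY2 among them, and 2 lower, the inhibitory SMAD6 (-1.27) and SMAD7 (-1.26). In that fit 3.25% of all genes were called higher and 3.34% lower. Among 31 junction and keratin genes CLDN2 was the 1 call, beside 0.181% of the well expressed genes called lower. The median was -0.04, and 0.05 with size factors, 0.16 without that library. Without that library CLDN4 (-1.05) and KRT19 (-1.16) were also called lower and TJP1 (0.89) higher, beside 4.29% and 1.23% of the well expressed genes.

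Of the NRF2 targets ABCC2 was the only 1 of 17 called, beside 0.199% of the well expressed genes called higher. Of the 17, 15 lay below 0 (median -0.32), so the direction of ABCC2 was not that of the list. The aryl hydrocarbon receptor repressor AHRR, a feedback target of that receptor, had the lowest p of its list of 9 (median -0.37, and -0.094 without SCR DMSO replicate 2) and was not called: it rose to 41.0 ± 2.20 CPM in siB AAI and 14.7 ± 4.59 CPM in SCR AAI (SD, n = 3; interaction 1.13, limma adjusted p = 0.134). None was called among 15 BCL2 family genes (median -0.33), 15 inflammatory genes (-0.25), 25 interferon response genes (-0.25), 23 YAP and TEAD targets (-0.13), 19 cholesterol synthesis genes (-0.18), 20 genes of amino acid transport and tRNA charging (-0.12) and 78 nuclear respiratory chain genes (0.07). In the fit without SCR DMSO replicate 2, BAK1 (-1.22, limma adjusted p = 0.0248) of the BCL2 family and NFKBIA (-0.87, limma adjusted p = 0.0252) of the inflammatory genes were called lower, and IGFBP3 (1.13, limma adjusted p = 0.0494) of the YAP and TEAD targets higher. The shares of all well expressed genes were 4.29% lower and 1.23% higher in that fit. The medians were then -0.48, -0.37, -0.037, -0.05, -0.20, 0.03 and -0.048 in the order of the lists above, so the last 2 changed sign.

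Ribosomal protein and mitochondrially encoded genes lay on the other side of 0. Of 79 ribosomal protein genes 74 were above 0 (median 0.25), with none called, but the median was 0.06 without SCR DMSO replicate 2, equal to that of all genes then. All 13 mitochondrially encoded genes were above 0, with a median of 0.47 (0.56 with size factors, 0.44 without AC010970.2, 0.63 without SCR DMSO replicate 2). MT-ND5 stood at 1669, 1840 and 1710 CPM in siB AAI and at 848, 1156 and 1316 CPM in SCR AAI (interaction 0.79, limma adjusted p = 0.214). It was called without SCR DMSO replicate 2 (0.99, limma adjusted p = 0.0268), as were MT-ND6 (1.01) and MT-ND4L (1.08), beside 1.23% of the well expressed genes called higher.

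**Figure D4:**
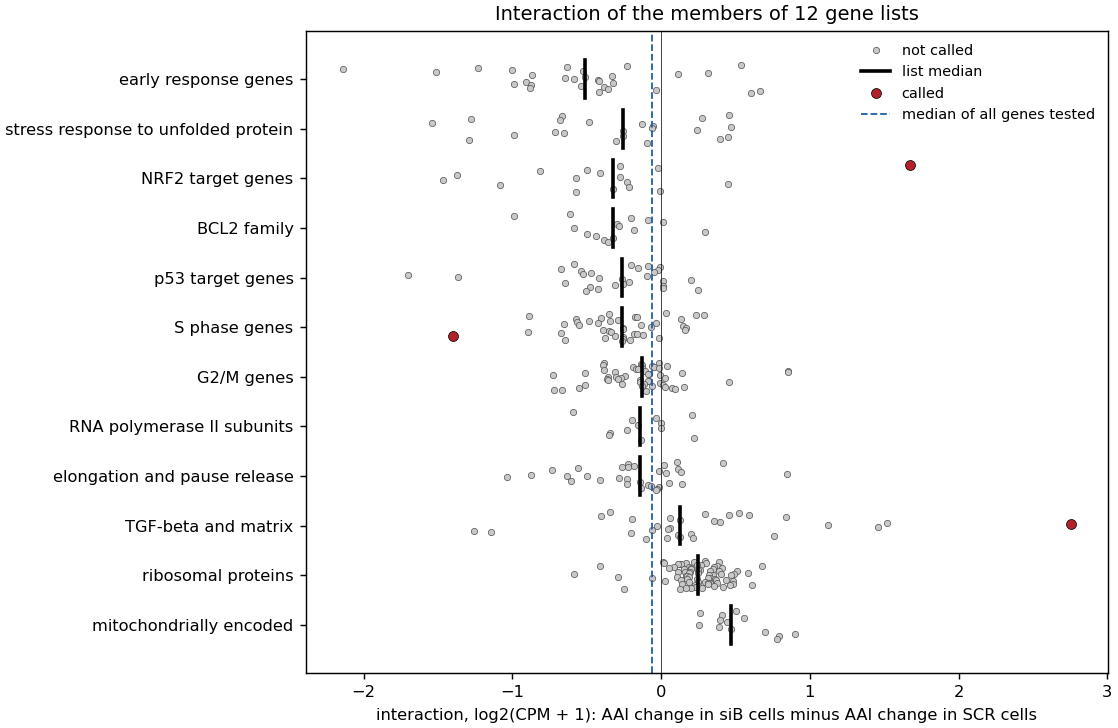
Interaction (log2 of CPM plus 1; change with AAI in siB cells minus that in SCR cells) of each tested member of 12 gene lists. Grey points were not called, red points were called (RRM2, ABCC2 and LEFTY2), thick black bars are list medians and the dashed line is the median of all genes tested, -0.06; early response genes lie mostly to the left (median -0.51) and mitochondrially encoded genes to the right (0.47).

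The called genes differed in span. Of the 21 well expressed genes called lower, 17 (81.0%) were short, under 30 kb, and 1 was long, over 100 kb, with a median span of 8.35 kb. Of the 22 higher genes with a span, 4 (18.2%) were short and 8 (36.4%) long, with a median of 74.3 kb. Among all well expressed genes 46.5% were short and 19.1% long. The median interaction was -0.23 over 5272 short genes, -0.12 over 3896 medium genes and 0.07 over 2161 long genes. These medians were not computed without SCR DMSO replicate 2, which moved that of all well expressed genes from -0.13 to -0.03. Short genes moved with AAI by a median of 0.17 in SCR cells and -0.06 in siB cells, medium genes by 0.25 and 0.12, and long genes by -0.07 and -0.06. Of the 174 weak higher genes with a span 50.6% were short, beside 55.8% of all weak genes.

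The lower genes also had few exons and GC-rich transcripts; these properties were chosen after the values were seen. Of the 21, 6 (28.6%) had a single exon, RASSF10, CEBPA, ZBED6CL, B3GALT4, PNMA1 and H2AFX, against 1.97% of the well expressed genes. The median GC content of their transcripts was 60.9%, that of the higher genes 49.6% and that of all well expressed genes 48.5%. The median interaction was -0.30 in the 2829 well expressed genes with the highest GC content and between -0.03 and -0.11 in the other 3 bins of like size. Span, exon number and GC content go together, and their parts were not told apart. None of these was computed without SCR DMSO replicate 2.

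Many of the higher genes lay just downstream of another expressed gene. Of 22 with a position, 11 had a same-strand gene with a mean of at least 5 CPM ending within 10 kb before their start, against 16.7% of the well expressed genes. DNAH10 began 433 bases past the end of ATP6V0A2, GRAMD2 1242 bases past PKM, the pyruvate kinase gene at 3009 CPM, and TLL2 4184 bases past TM9SF3. FAM179A, TSPAN31 and ANKRD26P1 began 8392, 9671 and 9676 bases past WDR43, OS9 and SHCBP1. Reads that run on from such a neighbour cannot be told apart here from the gene's own, since whether the counting used strand was not given in the sources used here and only totals per gene were analysed. The share was 28.6% for the lower genes (6 of 21) and 15.5% for the weak higher genes (27 of 174, beside 15.9% of all weak genes). Among the lower genes B3GALT4 began 612 bases past RPS18, at 972 CPM, and RILP 763 bases past PRPF8, at 580.5 CPM. The same limit holds for them. TMEM119 lay 23575 bases past SELPLG, a gene called higher itself.

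**Figure D5:**
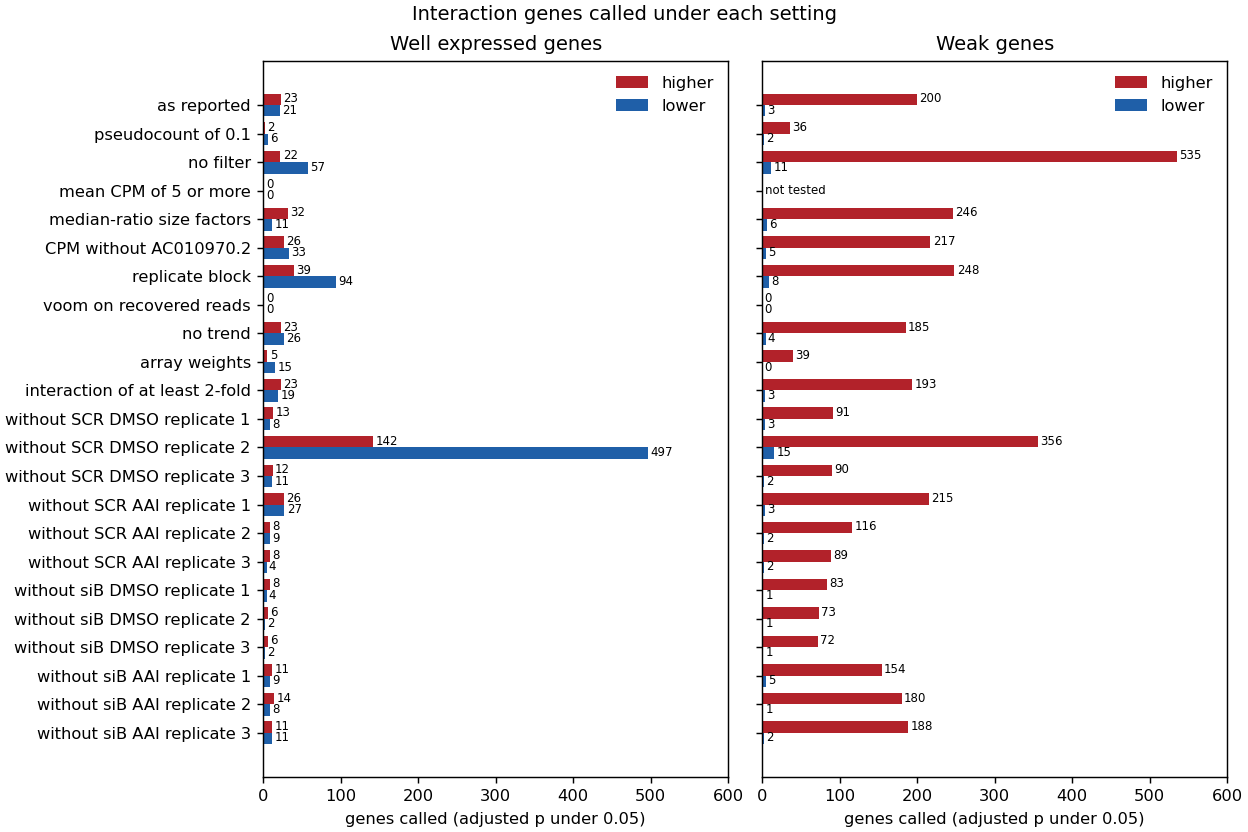
Number of genes with a called interaction (horizontal axis, limma adjusted p under 0.05) under each setting, for well expressed genes on the left and weak genes on the right, higher in red and lower in blue. The bars are longest without SCR DMSO replicate 2 for well expressed genes (142 higher, 497 lower) and without a filter for weak genes (535 higher), and absent under voom.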

How the data were processed

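Poly(A) RNA of 12 HK-2 libraries was sequenced as paired ends. The authors mapped the reads to the hg38 build and obtained gene totals from UCSC gene models with BioJupies, according to the study's methods; the aligner and the use of strand were not given in the sources used here. The authors deposited log10 values, log10 of CPM plus 1, with no further scaling or filter. CPM was recovered as 10 to that value minus 1, and at least 99.994% of values in each library were whole multiples of 1 read (within 0.01 reads), which gave depth; limits of detection cover counting error only. No replicate pair was a copy of one library.

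Genes with at least 1 CPM in at least 3 of 12 libraries were fitted in R 4.3.3 with limma 3.58.1 (lmFit, eBayes with trend). The response was log2(CPM + 1), that is, a pseudocount of 1, over 4 group means. The contrast was (siB AAI minus siB DMSO) minus (SCR AAI minus SCR DMSO). Adjusted p-values are Benjamini-Hochberg over all 15325 genes. Every log2 value is on the log2(CPM + 1) scale, which understates changes of weak genes, and SE are limma's moderated ones. The procedure was tested on simulated counts with the same variability for every gene and library and no outlying library. Its planted interactions lay only in genes with a mean of at least 5 CPM. It therefore says nothing about the outlying library or the weak calls of these data. Spans came from GENCODE 44 on hg38, matched by symbol for 27005 of 35238 names, 1136 of them through older symbols; exons and GC are those of the canonical transcript. Coordinates are 1-based.

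Named were the study's genes, the well expressed called genes with the largest interaction (12 each way), the weak ones (6 each way, filled by lowest p), called genes with opposite changes (5), up to 4 called members of each of 28 gene lists or else the member with the lowest p, and the genes at the level boundary. The members, lists and this rule were chosen with earlier results of these data known. A few genes that meet it are not reported here. Names turned into dates (28) were tested and not named. Alternatives were a pseudocount of 0.1, no filter, well expressed genes alone, median-ratio size factors, CPM without AC010970.2, a replicate block, voom, no trend, array weights, a 2-fold limit and leaving out each library. Chosen after seeing the data were a level boundary of 10 CPM and the list counts, the voom fit and the fit of well expressed genes alone without SCR DMSO replicate 2.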

Additional observations from a re-analysis of the deposited data

Results flagged for a closer look

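The named genes below, each with a called interaction, changed differently with AAI in SCR and siB cells by limma's test of that difference (adjusted p under 0.05 over 15325 genes; log2 values). Higher were TMEM119 (2.96), LRRC15 (2.79), LEFTY2 (2.76), MN1 (2.73), NPC1L1 (2.66), a transcript with a clone name only (2.44), GRAMD2 (2.42), TLL2 (2.21), MYH15 (2.11), SELPLG (1.97), ADAMTS6 (1.94), FAM179A (1.94), CLCN1 (1.87), SLC12A3 (1.81), TSPAN31 (1.77), ADGRF4 (1.71), ZNF560 (1.68), ANKRD26P1 (1.67), DNAH10 (1.67), ABCC2 (1.67), ANPEP (1.62), ZNF425 (1.53), PROM1 (1.49), SLC5A1 (1.44), PECAM1 (1.30) and ZNF534 (1.05). Lower were RASSF10 (-2.18), CEBPA (-1.98), RILP (-1.58), GPR162 (-1.56), TRMO (-1.48), ZBED6CL (-1.43), CDKN1C (-1.43), B3GALT4 (-1.41), RRM2 (-1.40), SNN (-1.38), PNMA6A (-1.38), GADD45G (-1.35), CITED2 (-1.32), LIPT2 (-1.25) and CLDN2 (-1.22). TMEM119, LRRC15, LEFTY2, NPC1L1, SLC12A3, ANPEP, SLC5A1 and ZNF534 reached 1 CPM in fewer than 3 libraries outside siB AAI, so these 8 genes were tested only because they were high in that group, and their calls are no independent support. Groups of 3 libraries were too small for a test of single outlying samples.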

How the results depend on the processing

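With all libraries 247 genes were called (44 well expressed, 203 weak). A pseudocount of 0.1 gave 46 (8 and 38), no filter 625 (79 and 546), voom 0 (0 and 0, with 1548 genes at an unadjusted p under 0.05), and array weights 59 (20 and 39), where the weights did not converge and SCR DMSO replicate 3 received a weight near 0. Well expressed genes alone, corrected without the weak genes, gave 0 calls (1125 at an unadjusted p under 0.05). A boundary of 10 CPM, chosen after seeing the data, left 28 calls well expressed. Size factors (295), CPM without AC010970.2 (281), no trend (238) and a 2-fold limit (238) stayed within 1.5 times. Leaving out 1 library gave 81 to 1010 calls, 8 to 639 well expressed and 73 to 371 weak, highest without SCR DMSO replicate 2 and lowest without siB DMSO replicate 2 or 3. The cause of these shifts was not tested, beyond the fewer samples or genes each fit held. The replicate block gave 389 calls (133 well expressed, 256 weak), 242 of them shared with the fit without it. Same-numbered libraries correlated above 0.1 in 13 of 18 pairs (-0.273 to 0.726), and 9 of 12 libraries correlated best with their own number. The numbers therefore marked related libraries in part, which the fit reported here leaves out. Nothing in the labels says whether they pair samples. The POLR2A interaction was not called under any alternative (-0.80 to -0.51). Of the other named genes' values under alternatives, 343 lost a call, 29 gained one and 4 changed sign, all VIM (-0.07 with all libraries, -0.4275 without SCR DMSO replicate 2): 0.0156 with size factors, 0.11 and 0.09 without SCR DMSO replicates 1 and 3, and 0.01 without siB AAI replicate 1.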

Other observations

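Among called well expressed genes outside those named by rule, chosen after their values were seen, CHD5, a chromatin remodeller mainly of neurons, had the largest change with AAI. Its mean was 0.210 CPM without AAI and 43.96 CPM with AAI in SCR cells, and 0.114 CPM and 122 CPM in knockdown cells (SD with AAI 11.7 and 28.9, n = 3), an interaction of 1.57 (limma adjusted p = 0.0314). DNMT3B, a de novo DNA methyltransferase, fell to 34.2 ± 5.57 CPM in siB AAI from 104 ± 8.06 CPM in siB DMSO, and stood at 92.1 ± 9.40 CPM in SCR AAI and 132 ± 6.13 CPM in SCR DMSO (interaction -1.06, limma adjusted p = 0.0303). ZFP36L2, which speeds the decay of AU-rich transcripts, rose with AAI in SCR cells from 43.0 ± 7.27 to 81.1 ± 7.48 CPM while knockdown cells had 59.2 ± 1.18 CPM without AAI and 50.9 ± 4.85 CPM with it (SD, n = 3; interaction -1.13, limma adjusted p = 0.0272).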
